A study of Mus musculus with 2 samples.

Results

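The immunoglobulin heavy and light chain genes were followed in the spleen cells of mice made arthritic with glucose-6-phosphate isomerase (GPI) and of control-immunized mice. There was 1 Affymetrix mouse GeneChip per group, on which a probe set, a group of short probes against a transcript, gives 1 signal (a linear intensity). Leaving out control probes, the array table holds 22626 probe sets, of which 55 belong here. They were chosen by the gene symbols of the platform annotation, not by their signals: every probe set that carries a heavy chain variable or constant symbol (Ighv, Ighm, Ighd, Ighg, Igha, Ighe), a kappa or lambda symbol (Igkv, Igkj, Igkc, Igk, Iglv, Iglc) or the J chain symbol (Jchain). This group of genes was picked out with ratios of these arrays already known, so the values given here describe it and test nothing.

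All mice were male DBA/1 mice aged 6 to 8 weeks, and spleens were taken on day 10. The GPI-immunized mice had received 300 μg of recombinant human GPI fused to glutathione S-transferase (GPI-GST) in complete Freund's adjuvant, and the control mice 100 μg of GST in the same adjuvant, so that adjuvant and carrier were common to both groups. The study describes spleens of 3 mice in each group, without saying in the labels or methods if their RNA was combined. As each group has 1 array and no replicate, no test was possible, and the number of arrays limits the precision.

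An antibody is built from paired heavy and light chains, each with a variable domain that binds antigen and a constant part. The constant part of the heavy chain sets the class. The variable domains are assembled in each B cell by joining gene segments, so a spleen holds transcripts of many different segments, each made by the B cells and plasma cells that chose it. B cells that meet antigen divide and may become plasma cells, which make secreted immunoglobulin in great amount. IgM is the first class to be secreted in a response, whereas IgG and IgA follow class switching, and the J chain links the units of IgM and IgA polymers.

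Signals on the GPI-immunized array were divided by those on the control array without further scaling. The median signals of the arrays were 48.65 (control) and 51.8 (GPI immunized). Ratios of 2 or more are called at least 2-fold higher here and ratios of 0.5 or less at least 2-fold lower, provided that the higher of its signals reached 50.2, the median of all signals of both arrays, and 39 of the 55 immunoglobulin probe sets passed this limit. The 27 probe sets used for bacterial transcripts (dap, lys, phe, thr and trp), which mouse RNA does not contain, reached 14.1 at most. The rest of the 64 control probe sets did not enter this value. As a measure of technical spread, probe sets of the same gene differed in log2 ratio with an SD of 0.26 per probe set (2532 pairs), which holds no difference between mice. The names follow the annotation. The files hold no probe sequences, so a probe set named Ighm may read the constant region or a rearranged variable part joined to it, and probe sets of related variable segments may read each other's transcripts. Of the 55 probe sets, 13 carry several symbols, and 20 (36.4%) have the suffix _x_at or _s_at, by which the manufacturer marks probes shared by several transcripts, against 13.2% of all probe sets.

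Immunoglobulin signals lay mostly above those of the control array, and the excess was uneven between probe sets. Of the 39 probe sets past the signal limit, 15 were at least 2-fold higher after GPI immunization, 0 were at least 2-fold lower and 24 lay between, whereas 2.31% of all 11717 probe sets past the limit were at least 2-fold higher and 0.538% at least 2-fold lower. The 15 comprised 8 kappa variable probe sets, 5 named Ighm alone, 1 named Ighv1-72 and Ighm, and 1 named for the kappa locus. The median log2 ratio of all 39 was 0.70, against 0.07 over all probe sets past the limit. A ratio above 1 was found for 34 of the 39, and for 6968 of all 11717. After each array was divided by its own median, which lowers every log2 ratio by 0.09, 27 of the 39 had a ratio above 1. This scaling left 13 of the 39 at least 2-fold higher, against 1.67% of all probe sets past the limit. The log2 ratios of the 39 spread with an SD of 0.99, against 0.41 over all probe sets past the limit. Of the 50 probe sets past the limit with the highest ratios, 8 were immunoglobulin probe sets, which make up 39 of all 11717.

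**Figure D1:**
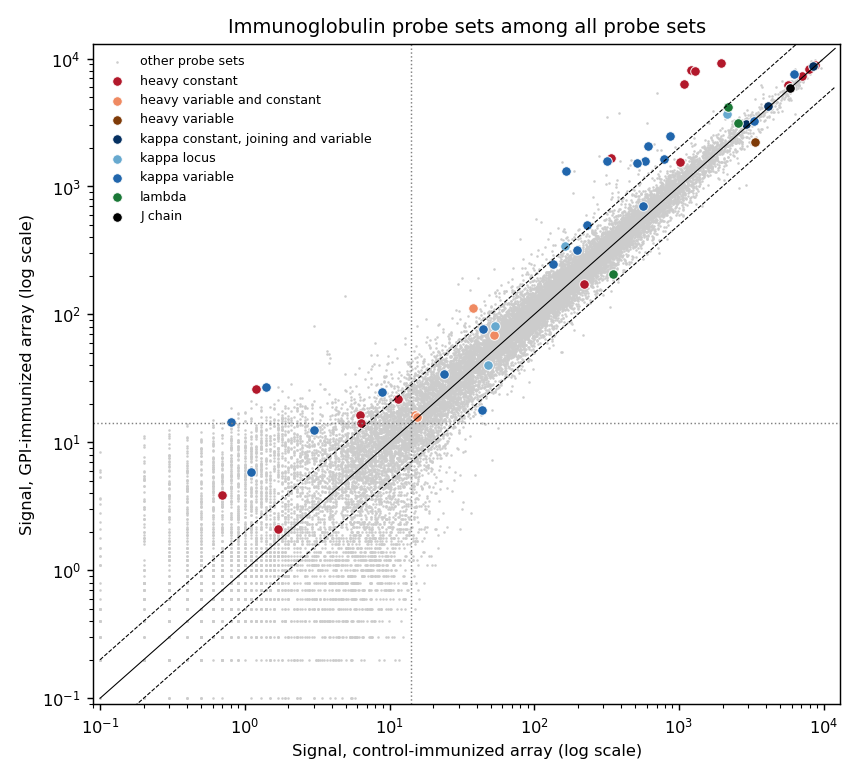
Signal on the GPI-immunized array (vertical, log scale) against the control array (horizontal, log scale), 1 point per probe set from 1 array per group. The 55 immunoglobulin probe sets are coloured by class, with ratios of 1 (solid line) and of 2 and 0.5 (dashed lines). Dotted lines mark 14.1, the highest signal of the 27 bacterial control probe sets used. Kappa variable and several Ighm probe sets stand above the ratio of 2 at intermediate control signals. The immunoglobulin probe sets brightest on the control array lie on or close to the line of equal signal.

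The heavy chain of IgM gave the widest spread. Ighm, which encodes the μ constant region, was the sole symbol of 11 probe sets, of which 7 passed the signal limit and 5 were at least 2-fold higher. Probe set 1425324_x_at went from a control signal of 1218 to 8125 after GPI immunization, a ratio of 6.67. Probe set 1427756_x_at had signals of 1293.9 and 7943.7 (ratio 6.14), and 1427870_x_at had 1086 and 6333.1 (ratio 5.83). All 3 were at 6333.1 or more on the GPI-immunized array, where the highest signal of any probe set was 9762.3. Probe set 1425247_a_at had signals of 1943.5 and 9251.3, a ratio of 4.76. The dimmer 1452535_at had signals of 337.9 and 1666, a ratio of 4.93, so a ratio near 5 was also found at lower signals.

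The remaining Ighm probe sets past the limit did not share this difference. Probe set 1427329_a_at had signals of 8711 and 8858.7 (ratio 1.02) and 1427351_s_at had 7967.2 and 8303.6 (ratio 1.04), both bright on both arrays. The log2 ratios of the 7 Ighm probe sets thus ran over 2.71, the widest range among the 88 genes with at least 5 probe sets past the limit, whose median range was 0.62. The next gene, Marcks, had a range of 1.43. No single value for Ighm can therefore be given from these arrays. The median ratio of its 7 probe sets was 4.93, while 1427329_a_at, the brightest by the geometric mean of its signals, had a ratio of 1.02. On the GPI-immunized array alone the brightest was 1425247_a_at (9251.3), with a ratio of 4.76.

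IgA and the J chain were nearly equal on the arrays. The 3 probe sets of Igha, the α constant region, had signals of 5637.6 and 6236.2, of 7057.5 and 7295.5, and of 5870.3 and 5835.5 (control first), with ratios from 0.994 to 1.11. Jchain, the peptide that joins IgM and IgA units, had signals of 5850.2 and 5909.9, a ratio of 1.01. After division by the array medians the ratio of Jchain lay slightly under 1, as it did with the other scalings. These probe sets were all above 5000 on both arrays, whose highest signals were 9642.3 (control) and 9762.3 (GPI immunized). Signals between these bounds cannot differ by a large factor, so a large difference could not have been seen among probe sets chosen at this level. Over all 182 probe sets with a control signal over 5000, whatever their GPI-immunized signal, ratios ran from 0.591 to 1.31.

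Ighg3, the γ3 constant region of IgG3, had 2 probe sets past the limit, and they lay on opposite sides of 1. Probe set 1427503_at had signals of 1015 and 1566.3 (ratio 1.54) and the dimmer 1447998_at had 219.2 and 171.4 (ratio 0.782). No probe set of the annotation used here carries Ighg1, Ighg2a, Ighg2b, Ighg2c, Ighd or Ighe, so these classes were not analysed here.

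Few probe sets bear a heavy chain variable symbol. The probe set named only Ighv14-2, 1455530_at, had signals of 3376.8 and 2226.5, a ratio of 0.659, the lowest heavy chain ratio past the limit. The probe set named Ighv1-72 and Ighm had signals of 37.8 and 112.9, a ratio of 2.99, and passed the limit through the higher of these alone. Of 3 probe sets named Ighv14-2, Ighg3 and Ighm, 1 passed the limit, with signals of 53 and 69 (ratio 1.30), and the others had ratios of 1.09 and 1.02 from signals between 15.1 and 16.4. Whether the 11 Ighm probe sets read heavy chain variable sequence was not tested.

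Among the kappa light chain probe sets, those that carry the constant gene did not follow those of the variable segments. Igkc, the kappa constant gene, is read by 3 probe sets that also carry Igkj1 and variable symbols. Their signals were 2912.7 and 3052.6, 4116.9 and 4228.6, and 8459.5 and 8822.5, with ratios of 1.05, 1.03 and 1.04, which lay under 1 after division by the array medians. The first pair lies well below the top of the signal range, so nearly equal signals were not limited to the brightest probe set. Of 4 probe sets named only for the kappa locus (Igk), 3 passed the limit, all with ratios above 1. Probe set 1427757_at had signals of 162.6 and 343.5 (ratio 2.11), 1425738_at had 2162.1 and 3700 (ratio 1.71) and 1426178_at had 53.3 and 81 (ratio 1.52). Probe set 1427757_at had a ratio of 1.98 after division by the array medians and was also just under 2 after quantile normalization.

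The kappa variable segments, each of which encodes the larger part of a kappa variable domain, held most of the higher signals. Of 21 probe sets, 14 passed the limit, 8 of these were at least 2-fold higher and 13 had a ratio above 1, with a median ratio of 2.12 (median log2 ratio 1.08, SD 0.82). Igkv9-120 had the highest ratio of all immunoglobulin probe sets past the limit, from signals of 164.8 and 1317.3 on probe set 1452536_s_at, a ratio of 7.99. This was rank 7 among the 11717 probe sets past the limit. Another probe set of the same name, 1460423_x_at, had signals of 3297.6 and 3254.4, a ratio of 0.987, so the probe sets of Igkv9-120 disagreed.

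Igkv4-72 followed, with signals of 317.6 and 1581.2 (ratio 4.98). Igkv14-111 had signals of 606.6 and 2071.2 (ratio 3.41). Igkv6-20 had signals of 511.3 and 1514.8 (ratio 2.96), and a probe set shared by Igkv6-14, Igkv6-23 and Igkv8-19 had 867.4 and 2470.2 (ratio 2.85). These 4 started between 317.6 and 867.4 on the control array and ended between 1514.8 and 2470.2. Igkv6-14 had signals of 582.6 and 1586 (ratio 2.72), Igkv4-68 of 230.5 and 495.7 (ratio 2.15) and Igkv15-103 of 790.8 and 1645.2 (ratio 2.08). Igkv15-103 lay under 2 with each array divided by its median (1.95), after quantile normalization (1.98) and, by a small margin, after loess centring.

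The 6 kappa variable probe sets between the thresholds ran from 0.987 to 1.85. Both other probe sets shared by Igkv6-14, Igkv6-23 and Igkv8-19 were higher without reaching 2-fold, with signals of 134.3 and 248.1 (ratio 1.85) and of 196.7 and 320.5 (ratio 1.63). Igkv19-93 had signals of 44.2 and 77 (ratio 1.74), and the probe set shared by Igkv4-55 and Igkv4-68 had 562.8 and 704.9 (ratio 1.25). The brightest of the class, Igkv8-30, had signals of 6253.1 and 7520.6, a ratio of 1.20.

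**Figure D2:**
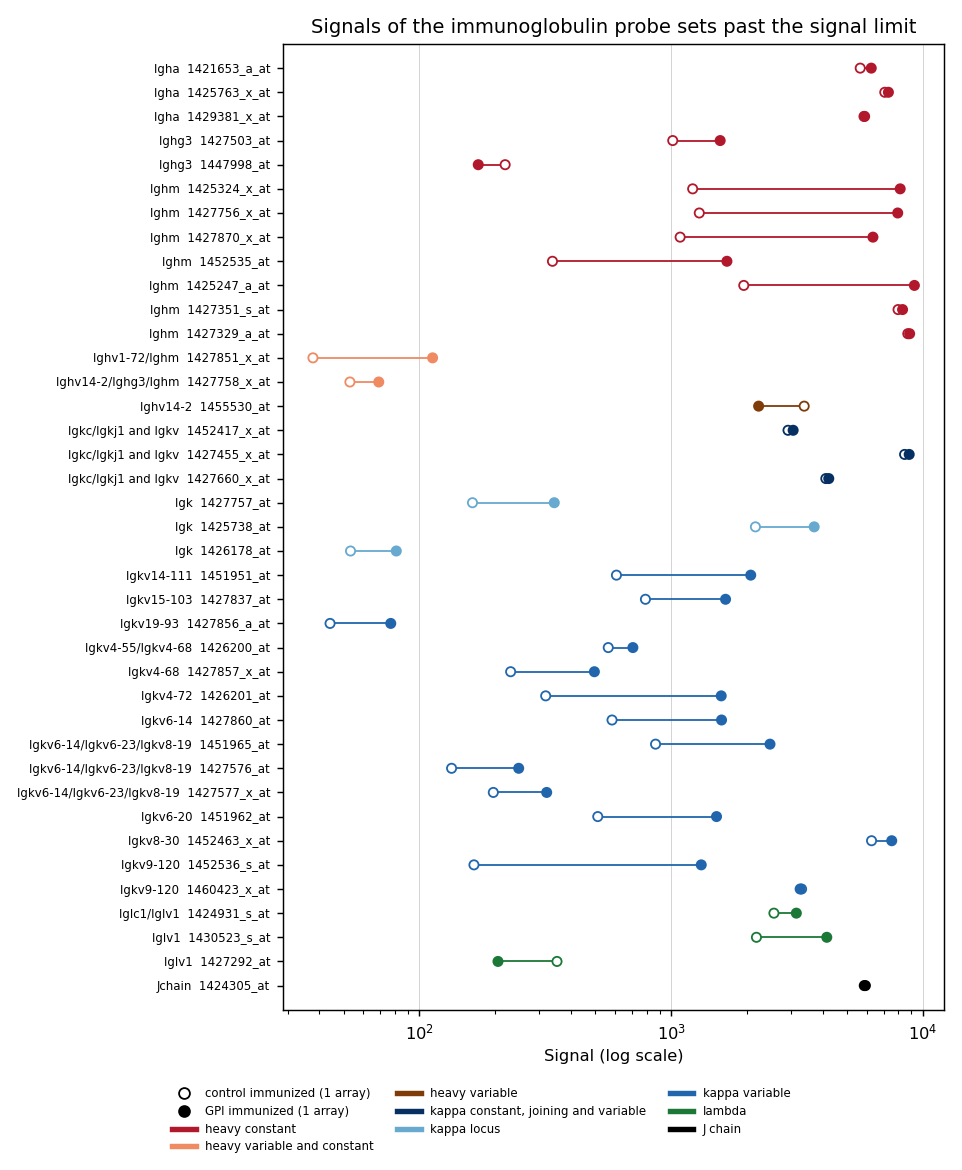
Signals (horizontal, log scale) of the 39 immunoglobulin probe sets past the signal limit, 1 row per probe set with its symbols and identifier, open circles for the control array and filled circles for the GPI-immunized array, coloured by class. Long lines to the right mark 5 Ighm and several Igkv probe sets, whereas the Igha, Igkc and Jchain circles nearly coincide.

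The kappa variable names with ratios of at least 2 lie at several places of the locus. The reference assembly of the C57BL/6J strain (GRCm38.p6) lists 162 kappa variable segments and pseudogenes, which can be counted from the side of the constant gene. Of the segments that a probe set with a ratio of at least 2 names alone, Igkv6-14 is at place 15, Igkv6-20 at 21, Igkv4-68 at 78, Igkv4-72 at 83, Igkv15-103 at 124, Igkv14-111 at 132 and Igkv9-120 at 143. Between places 21 and 78 the probe set of Igkv8-30 (place 32) had a ratio of 1.20 and that of Igkv5-39 (place 41) was below the signal limit. The probe sets of Igkv4-68 and Igkv9-120 with these ratios end in _x_at and _s_at, and 1 of the Igkv9-120 probe sets had a ratio of 0.987. That of Igkv4-68 was built on the same sequence as the Igkv19-93 probe sets (place 109). The Igkv6-14 probe set was built on the same sequence as that of Igkv6-15 (place 16). The segment that gave the signal is therefore not settled for Igkv4-68, Igkv6-14 and Igkv9-120. The DBA/1 genome may order or lack segments differently, and no genome build is named for the array values, so no coordinates are given.

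Lambda light chains, the rarer type in mice, showed no common direction. Iglv1 had signals of 2182.2 and 4152.2 on 1430523_s_at (ratio 1.90) but 352.2 and 205.3 on 1427292_at (ratio 0.583). The probe set shared by Iglc1 and Iglv1 had signals of 2560.3 and 3143.1 (ratio 1.23). None of these 3 reached 2-fold in either direction, and probe sets of the same variable gene lay on both sides of 1.

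The 16 immunoglobulin probe sets below the signal limit had control signals from 0.7 to 47.6 and GPI-immunized signals from 2.1 to 40.1. Of these, 14 were higher on the GPI-immunized array, and the share over all probe sets below the limit was not counted. With control signals this close to 0, most of their ratios are poorly determined. Igkv5-39 had signals of 1.4 and 27.3, which is at least 1.94-fold higher when the control signal is raised to the bacterial maximum of 14.1. An Ighm probe set built on the same sequence as 1427870_x_at, 1427869_at, had signals of 1.2 and 26 (at least 1.84-fold higher), and the dimmest Igkv9-120 probe set, 1427750_at, had 8.9 and 24.7 (at least 1.75-fold higher). For 4 probe sets (Igkv1-117, Igkv1-135, 1 of Ighm and 1 of Ighg3) both signals lay under 14.1, so no ratio is given. The lowest of this group was the probe set shared by Igkv6-14 and Igkv6-23, with signals of 43.9 and 17.9, a ratio of 0.408.

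The same probe sets were also set out by brightness. Of the 8 immunoglobulin probe sets with a geometric mean of the signals of at least 5000, 0 were at least 2-fold higher, and their ratios ran from 0.994 to 1.20. The background at this brightness was 0%: among all 182 probe sets of that kind the ratios ran from 0.790 to 1.31. This level held 20.5% of the immunoglobulin probe sets past the limit but 1.55% of all probe sets past it. A mean signal is itself lower where only the GPI-immunized signal is high. Of the 12 immunoglobulin probe sets with a GPI-immunized signal over 5000, 4 were at least 2-fold higher, all of them Ighm with ratios from 4.76 to 6.67. Their control signals were 1086 to 1943.5, so they entered this set only through the array where they were high. The background was 5 of 186 probe sets (2.69%), and these 4 are among the 5, so the comparison tests nothing. Of the 31 with a mean signal under 5000, 15 (48.4%) were at least 2-fold higher, against 2.35% of all probe sets. Between 1000 and 5000 the count was 7 of 15 (background 1.62%), between 100 and 1000 it was 7 of 12 (background 1.64%), and between 10 and 100 it was 1 of 4 (background 4.49%). Whether the signal of the brightest probe sets had reached the upper limit of the scanner or of the probes was not tested, and equal signals there do not show equal amounts of RNA.

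**Figure D3:**
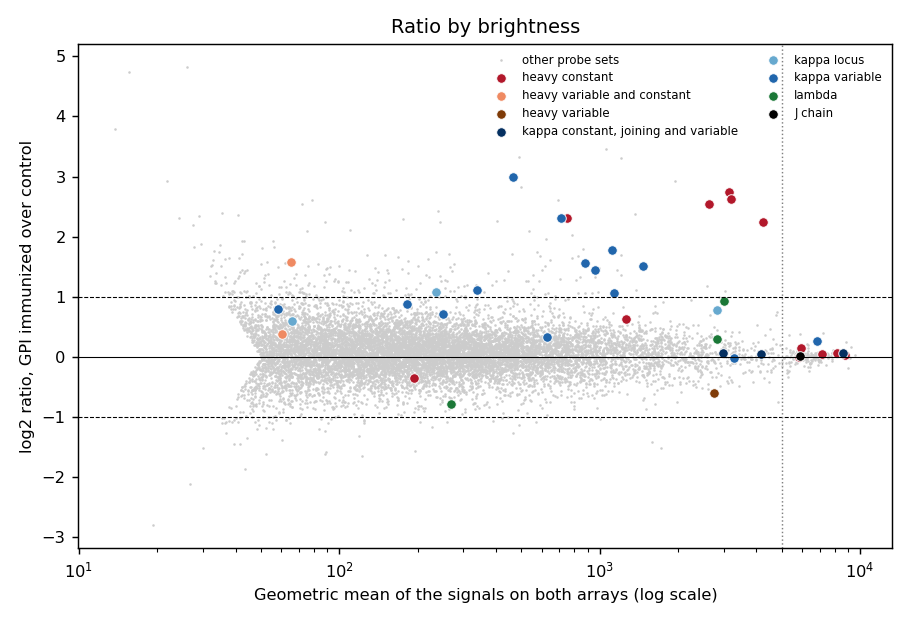
Log2 of GPI-immunized over control signal (vertical) against the geometric mean of both signals (horizontal, log scale) for all probe sets past the signal limit, with immunoglobulin classes coloured, 2-fold ratios as dashed lines and a mean signal of 5000 as a dotted line. To the right of 5000 no probe set leaves the band between the dashed lines, and to its left 15 immunoglobulin probe sets lie above it.

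Genes of the B cell lineage that are not immunoglobulins were compared in the same way, each gene by its brightest probe set with a single symbol. Dimmer probe sets past the limit could differ from it, as for Hsp90b1 (up to 2.09), Sec61a1 (0.861 to 2.05) and Exo1 (up to 2.69). Over all 6961 genes past the limit, 2.23% were at least 2-fold higher and 0.445% at least 2-fold lower, with a median log2 ratio of 0.06. Ratios were above 1 for 4006 of these genes and below 1 for 2950. B cell receptor and mature B cell genes lay on the other side of 1 from the immunoglobulins. Of 20 such genes past the limit, 0 were at least 2-fold higher, 1 was at least 2-fold lower, and all 20 had ratios below 1 (median log2 ratio -0.35). The low-affinity IgE receptor Fcer2a had signals of 1437.2 and 705.5 (ratio 0.491), the B cell co-receptor Cd72 a ratio of 0.612, the Fc receptor-like Fcrl1 0.625 and the kinase Blk 0.674. The signalling chains that carry IgM at the cell surface, Cd79a and Cd79b, had ratios of 0.701 (signals of 2961.3 and 2076.5) and 0.791 (3044 and 2407.7). In whole splenocytes, fewer cells of a type and less RNA per cell cannot be told apart.

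Plasma cell and secretory genes had ratios mostly above 1, few of them reaching 2-fold. Of 15 plasma cell genes past the limit, 2 were at least 2-fold higher, 0 were lower and 13 lay between (median log2 ratio 0.19), and after each of the 3 other scalings 0 were. The peptidyl-prolyl isomerase Fkbp11 had signals of 43.2 and 90.9 (ratio 2.10) and Eaf2, a transcription elongation cofactor, had 56.8 and 116.5 (ratio 2.05). Fkbp11 passed the limit through its GPI-immunized signal alone, and with the control signal raised to the limit its ratio was 1.81, which leaves 1 gene at least 2-fold higher. Creb3l2 (ratio 1.98, or 1.69 when raised) and Slamf7 (ratio 1.63, or 1.41 when raised) passed in the same way. Xbp1, the transcription factor of the secretory programme, had signals of 1275.6 and 2410.9 (ratio 1.89), with its other probe sets down to 1.16. The defining surface marker Sdc1 (CD138) had signals of 100.2 and 110.8 (ratio 1.11), with another probe set at 1.44. Prdm1 (Blimp-1), with 35.1 and 33.1, and Tnfrsf17 (BCMA), with 39.7 and 41.2, were below the limit on both arrays. No ratio is therefore read for these 2, and Sdc1 had a ratio under 2 on each of its probe sets. Irf4, another of the chosen plasma cell markers, had signals of 287.8 and 253.5 (ratio 0.881, with its probe sets up to 1.67), and Mzb1 had no value. Tnfrsf13b (0.684) and Cd28 (0.718) were also below 1, so that of the 15 genes 12 lay above 1 and 3 below.

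Genes that fold and export immunoglobulin in the endoplasmic reticulum leaned to the GPI-immunized array. Of 25 past the limit, 24 had ratios above 1, 1 was at least 2-fold higher and 0 were lower (median log2 ratio 0.31). After the other scalings 22 had ratios above 1 and 0 were 2-fold higher. The chaperone Hyou1 had signals of 129.7 and 264.5 (ratio 2.04), Creld2 a ratio of 1.91, the Hsp40 partner Sdf2l1 1.77 and the disulphide isomerase Txndc5 1.66 (its probe sets ran down to 0.975). Hspa5 (BiP), the chaperone that binds free heavy chains, had signals of 1992.6 and 2868.3 (ratio 1.44).

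Genes of class switching, hypermutation and the germinal centre, where B cells refine their variable segments, lay on both sides of 1. Of 14 past the limit, 2 were at least 2-fold higher and 0 lower (median log2 ratio 0.15), but both passed the limit through the GPI-immunized signal alone. The germinal centre transcription factor Mef2b had signals of 3 and 80.5, with the control signal under the bacterial maximum, and Gcsam, a germinal centre signalling protein, had 23.4 and 73 (ratio 3.12). With control signals raised to the limit these ratios were 1.60 and 1.45, so that 0 genes of the list were 2-fold higher. Bach2, a repressor of plasma cell differentiation, had signals of 661.5 and 359.9 (ratio 0.544), and Fas had a ratio of 1.77. Bcl6, the master regulator of germinal centre B cells, had signals of 166.1 and 232 (ratio 1.40).

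**Figure D4:**
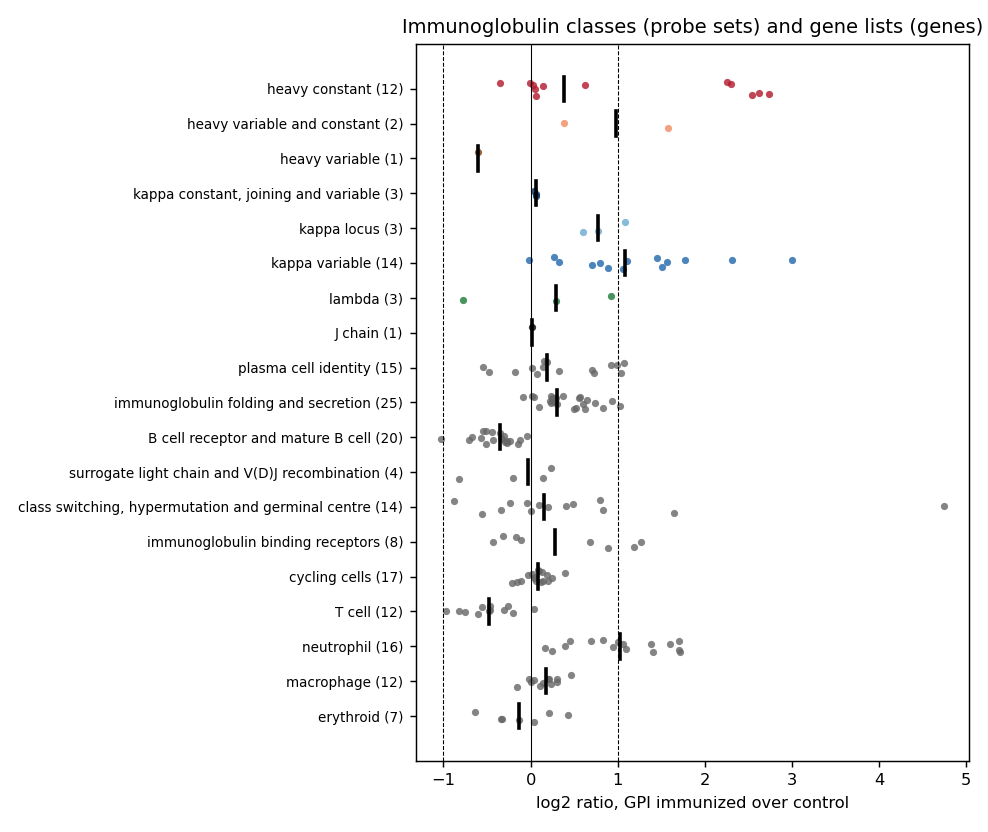
Log2 of GPI-immunized over control signal (horizontal) for the immunoglobulin classes (coloured, 1 point per probe set) and for gene lists (grey, 1 point per gene), with the number past the signal limit in brackets, the median as a vertical bar and 2-fold ratios as dashed lines. Kappa variable probe sets have a median of 1.08, the 20 B cell genes all lie left of 0, and the folding and secretion genes lie mostly right of it.

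Markers of other splenic cells also differed between the arrays. Of 16 neutrophil genes past the limit, 8 were at least 2-fold higher (summed signal 36145.6 in the control and 53134.2 after GPI immunization, median log2 ratio 1.03), and of 12 T cell genes 0 were 2-fold higher or lower, with 11 ratios below 1 (summed signal 2935.3 and 2094.5, median log2 ratio -0.47; after the other scalings 1 of these was 2-fold lower and 7 of the neutrophil genes 2-fold higher). Of the 8 higher neutrophil genes, Cxcr2 (signals of 23.5 and 76.6) and Padi4 (33 and 85.9) passed the limit through the GPI-immunized signal alone. With signals raised to the limit their ratios were 1.53 and 1.71, and 6 neutrophil genes were at least 2-fold higher. The other 8 lay between the thresholds, among them S100a8 (ratio 1.18), S100a9 (1.12), Ngp (1.31), Camp (1.62) and Ltf (1.996). Macrophage genes (12, median log2 ratio 0.17) and erythroid genes (7, median log2 ratio -0.13) had no gene past 2-fold by its brightest probe set. Over all probe sets past the limit, the erythroid gene Tfrc reached a ratio of 2.80 and the T cell gene Zap70 ran down to 0.437. Of the 12 macrophage genes 10 had ratios above 1 (8 after the other scalings). The part of these shifts in the immunoglobulin ratios was not tested.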

How the data were processed

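The authors deposited 1 intensity per probe set and array on a linear scale, made with software that the methods call gene expression software. The sources used here do not give the probe summarization, any scaling between arrays or detection calls. Both columns were assigned to their groups from the sample titles. Signals of 0 (3 in all) were set to 0.1. Genes were named from the platform annotation, and all 28 symbols of the immunoglobulin probe sets were matched by gene ID in RefSeq (GRCm38.p6). The signal limit was the 50th percentile of all signals. The immunoglobulin probe sets and the gene lists were chosen with earlier results of these data known. Named were all probe sets past the limit and up to 4 genes of a list furthest from a ratio of 1, and further genes after their values were seen. A separate class for the kappa locus was added when the annotation was read. Alternatives were 3 other scalings, 3 floors on low signals, other filters and folds, and subsets of probe sets. Of the immunoglobulin genes, the promoter table used here holds Jchain alone, so no promoter motif was searched. The steps were tested on simulated data. Computation used Python 3.11.15 (numpy 2.4.6, pandas 2.3.3) and statsmodels 0.14.6 for loess, with matplotlib 3.10.9 for the plots.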

Additional observations from a re-analysis of the deposited data

How the results depend on the processing

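With 1 array per group, all values describe these arrays alone, and hybridization, pool and treatment cannot be told apart. No paired analysis was possible because each group has 1 array. The count of immunoglobulin probe sets at least 2-fold higher was 15 of 39 (2.31% of all probe sets past the limit). It was 13 of 39 with each array divided by its median (1.67% of all) or quantile normalized (1.68%), and 14 of 39 after loess centring (1.77%). With any of the 3 floors it was 15 of 39, against 2.31% of all, or 1.59% with the 50th percentile floor. All of these were among the 15. It was 14 of 34 with a limit at the 75th percentile (1.97% of all). Over immunoglobulin probe sets with 1 symbol it was 13 of 29 (2.31% of all, whatever their number of symbols). It moved to 24 of 55 without a filter (11.2% of all probe sets), to 9 of 21 without _x_at and _s_at probe sets (2.31% of all) and to 8 of 39 at 3-fold (0.563% of all). The count of lower probe sets (0) was 1 of 55 without a filter, against 2158 of all 22626 probe sets. At 1.5-fold it was 2 of 39, against 419 of all 11717, while 22 of the 39 were higher (8.31% of all). The median log2 ratio stayed between 0.61 and 0.80. Without a filter the medians were 1.05 for heavy constant (0.39 with it), 0.25 for heavy variable and constant (0.98) and 1.44 for kappa variable (1.08). Leaving out _x_at and _s_at probe sets gave 1.44 for kappa variable and, from 1 remaining probe set, -0.78 for lambda (0.30 with all 3). For single probe sets, the other scalings moved log2 ratios by at most 0.11. The 25th percentile and bacterial floors left all 39 as they were, because none of their signals lay under these floors. The 50th percentile floor changed 2, and the log2 ratio of the Ighv1-72 and Ighm probe set was 1.17 against 1.58. For the gene lists, settings added after the data were seen, the 3 other scalings left 0 plasma cell genes (2 before) and 0 folding and secretion genes (1 before) at least 2-fold higher and 1 T cell gene (0 before) at least 2-fold lower. The 50th percentile floor left 1 plasma cell gene, 0 germinal centre genes (2 before) and 6 neutrophil genes (8 before) at least 2-fold higher.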

Other observations

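Receptors that bind immunoglobulin lay on both sides of 1. Of 8 past the signal limit, 2 were at least 2-fold higher, 0 were lower and 6 lay between (median log2 ratio 0.28). Fcgr4, a myeloid receptor for IgG, had signals of 57.2 (control) and 137.6 (GPI immunized), a ratio of 2.41, and Fcgr3, the low-affinity activating IgG receptor, had 254.5 and 581.1 (ratio 2.28). The high-affinity IgG receptor Fcgr1, past the limit through the GPI-immunized signal alone, had a ratio of 1.85 and the shared signalling chain Fcer1g 1.60. Fcgr2b, the inhibitory IgG receptor that B cells also carry, had signals of 1009.8 and 899.6 (ratio 0.891, with its other probe sets up to 1.31), and Fcrla, a B cell protein of the Fc receptor family, had 542.8 and 401.5 (ratio 0.740).

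By its brightest probe set, no listed gene of early B cell development or of the cell cycle that passed the limit was 2-fold higher or lower. Of the genes for the surrogate light chain and V(D)J recombination, 4 passed the limit and 0 of these were 2-fold higher or lower. The lowest was Il7r, the interleukin-7 receptor chain that T cells also carry, with signals of 362.7 and 205 (ratio 0.565). The recombinase genes Rag1 (29.7 and 20.5) and Rag2 (1.7 and 0.9) and the surrogate light chain gene Igll1 (25.2 and 28.9) were below the limit on both arrays. All 17 cycling genes past the limit lay, by their brightest probe sets, between ratios of 0.865 (Ccnb2) and 1.31 (Mcm2). Over all probe sets past the limit, those of Cdc20 ran from 0.364 to 1.18 and those of Rrm2 up to 1.36.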
